A study of Ischnura elegans with 24 samples.

Results

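Southern larvae at 24 °C were compared with northern larvae at 20 °C, each latitude at the temperature taken as its own, in the damselfly Ischnura elegans, from RNA of whole male larvae in their final instar. The comparison used 12 of the 24 libraries, chosen by their labels alone. Southern larvae at 24 °C came from southern populations 1, 2 and 3, and northern larvae at 20 °C from northern populations 1, 2 and 3, with 2 pools (a and b) of 3 larvae for each population. The other 12 libraries come from the same 6 populations at the swapped temperatures, with southern larvae reared at 20 °C and northern ones at 24 °C. All larvae were offspring of females of these populations, went at random to a temperature after hatching, grew up singly in the laboratory and ate brine shrimp nauplii. A population is represented by 6 larvae per temperature, and latitude by 3 populations, so the results hold for these populations. Latitude and rearing temperature change together in this comparison.

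Insects take their body temperature from their surroundings, and rearing temperature changes growth, metabolism and gene expression within a generation, which is called plasticity. Populations along a latitudinal gradient also differ by inheritance. Setting warm-site animals at their warm temperature against cool-site animals at their cool temperature is a space-for-time comparison, in which the warm site stands in for a later, warmer state of the cool one. In such a comparison the difference between populations and the plastic response are added together. With genetic compensation the inherited difference opposes the plastic response, and with genetic assimilation a plastic response has become fixed, so the series title asks how these parts combine.

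The deposited values were read counts for 34095 Trinity contigs, which are transcripts pieced together from short reads alone, from 29751 Trinity genes. Library totals were 12810307 to 16868514 counts in southern larvae at 24 °C (mean 14359716 ± 1593108, SD, n = 6) and 13261720 to 16127829 counts in northern larvae at 20 °C (mean 14630074 ± 1138969). The file does not pair contigs with gene names, and 0 of the identifiers matched RefSeq's genes for assembly ioIscEleg1.1. Tissue markers could therefore not be checked, functions are not given, and at most 2 contigs that were higher and 2 that were lower are named per comparison. In whole bodies, fewer cells of a type and less RNA per cell cannot be told apart. On the first principal component of the 12 libraries, which held 23.2% of the variance in log2 CPM (counts scaled to a common library size), southern libraries lay between 21.19 and 62.66 and northern libraries between -102.5 and -12.18. Northern library 1b was farthest out, and it differed from its partner pool 1a by 58.29 chi-square units per degree of freedom, against 11.25 to 30.93 for the other 5 pairs of pools. On the second component (12% of the variance) the pools of northern population 3 lay at -75.17 and -73.15. All other libraries lay between -9.664 and 41.69 there.

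Southern larvae at 24 °C differed from northern larvae at 20 °C in 139 of 31096 tested contigs, 0.447% of them. Of these, 63 were higher (0.203% of tested contigs) and 76 were lower (0.244%) in southern larvae. The test was edgeR's quasi-likelihood F test on 3 population sums against 3, with a Benjamini-Hochberg adjusted p under 0.05, and contigs at 0 in 10 or more of the 24 libraries were left out. The median log2 difference was 1.16 among the 63 contigs (0.49 to 7.41) and -1.45 among the 76 (-3.79 to -0.53), while over all tested contigs it was -0.01 and the median size of a difference was 0.24. A difference of at least 2-fold was seen in 35 of the 63 and 60 of the 76, and of at least 8-fold in 9 and 3. Before adjustment, 5701 contigs (18.3%) had p under 0.05. Large differences were often not called: 474 tested contigs differed by at least 4-fold, and 36 of them passed.

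**Figure D1:**
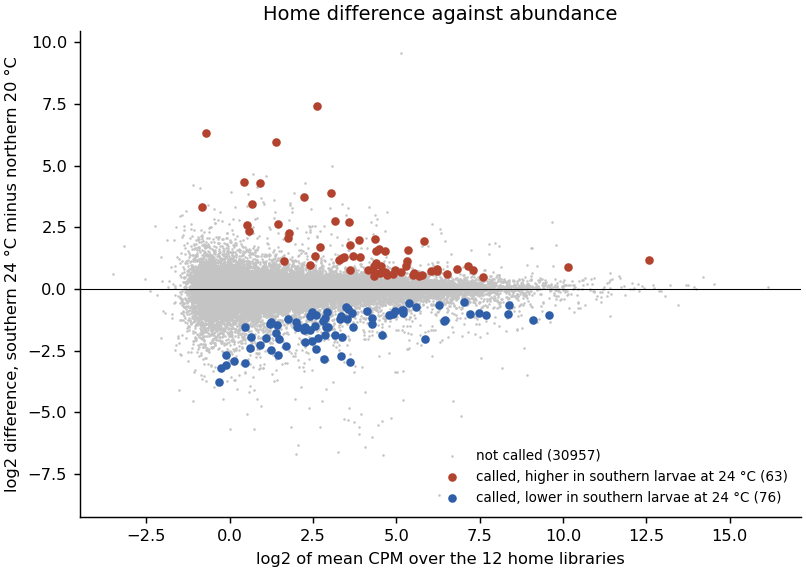
Each point is 1 of 31096 contigs, with the log2 of its mean CPM over the 12 home libraries on the horizontal axis and its log2 difference (southern 24 °C minus northern 20 °C) on the vertical axis. The 63 contigs called higher and the 76 called lower lie across the range of abundance, with larger differences at low abundance.

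Called contigs were more abundant than the rest. Their median was 4.35 log2 CPM for those higher and 2.88 for those lower in southern larvae, against 1.46 over tested contigs. In 4 equal bins of abundance, from low to high, 0.0772%, 0.244%, 0.643% and 0.823% of tested contigs were called. The median size of called differences ran the other way, at 3.25, 2.41, 1.55 and 0.92 on the log2 scale, so that at low counts only large differences passed. In the lowest bin 2 contigs were higher and 4 lower, and in the highest 38 were higher and 26 lower.

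The 63 contigs that were higher took 1.27% ± 0.192 (SD, n = 6) of all counts in southern larvae at 24 °C and 0.599% ± 0.179 in northern larvae at 20 °C. Single libraries ran from 1.093 to 1.621% in southern and from 0.3216 to 0.7905% in northern larvae and did not overlap, which the choice of contigs favours. Most of this share came from the most abundant contig of the list, singled out after its values were seen. It averaged 8530 ± 1150 CPM (7283 to 10140) in southern larvae at 24 °C, against 3770 ± 1470 CPM (1411 to 5051) in northern larvae at 20 °C, a log2 difference of 1.16 (edgeR adjusted p = 0.0453). At the swapped temperatures this contig averaged 5740 ± 1010 CPM in southern larvae at 20 °C, against 7670 ± 2230 CPM in northern larvae at 24 °C, with a log2 difference of -0.41 and libraries that overlapped. Its mean was thus higher in the 24 °C group of each pair. Without it the other contigs of the list took 0.399% ± 0.0737 of counts in southern larvae at 24 °C and 0.215% ± 0.0374 in northern larvae at 20 °C. The 76 contigs that were lower took 0.235% ± 0.0365 in southern larvae at 24 °C and 0.500% ± 0.0878 in northern larvae at 20 °C.

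The 139 contigs belonged to 135 Trinity genes. In 4 of these genes 2 contigs were called, in the same direction each time, and no Trinity gene had called contigs in both directions. Contigs of a Trinity gene can share reads, so such pairs are not separate observations. Of the called contigs 20.1% had another tested contig in their Trinity gene, against 23.3% of tested contigs.

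Each of the 139 contigs had population means that did not overlap between the groups, as did 24.7% of tested contigs. Single libraries were a stricter measure: in 96 of the 139 contigs (48 higher and 48 lower) the 6 southern and 6 northern values did not overlap, and in 43 they did. The contigs were called on sums of these same libraries, which favours both kinds of separation, so neither count checks the calls. Over all tested contigs 949 (3.05%) had no overlap, 479 with southern larvae higher (1.54%) and 470 with southern larvae lower (1.51%). Of these 949 contigs, most were not called by the test on population sums.

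Pools of a population differed, and a mean of 2 pools varies less than a single pool even where populations do not differ, so the spreads of pools and population means are given side by side with no test. In southern larvae at 24 °C the median SD of log2 CPM was 0.33 between pools of a population and 0.22 between population means over tested contigs. In called contigs it was 0.45 between pools and 0.17 between population means. In northern larvae at 20 °C these values were 0.35 and 0.24 over tested contigs, and 0.51 and 0.19 in called contigs. Called contigs thus had pools that differed more, and population means that differed less, than tested contigs did. The choice of contigs by a test on population sums favours close population means. A pool difference of at least 4-fold in 1 or more of the 6 home populations was found in 33.1% of called and 12% of tested contigs.

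TRINITY_DN280007_c0_g3_i1 had the largest called difference. It was at 23.9 and 0.25 CPM in pools a and b of southern population 1 at 24 °C, 0.257 and 23.5 CPM in population 2 and 19.8 and 5.34 CPM in population 3. In northern larvae at 20 °C it was at 0.185 and 0 CPM in population 1, 0.123 and 0 CPM in population 2 and 0.0701 and 0 CPM in population 3, from 6 counts in all against 1059 in southern larvae. Northern larvae were near 0 throughout, while southern pools were either near 20 CPM or near the northern level, with 1 pool between, and the groups did not overlap by a margin of 0.25 against 0.185 CPM. This margin is 4 counts in southern library 1b against 3 counts in northern library 1a, and a count of 3 is the floor. The log2 difference was 7.41 ± 0.25 (SE, edgeR adjusted p = 0.000112), a size that depends on the prior count of the fit because the northern counts are so few. That prior count is edgeR's default, not the 2 used for log2 CPM. The small SE holds for population sums, in which a pool with many counts and a pool with few were added in populations 1 and 2. With the 12 libraries tested singly and population as a random block in limma, the adjusted p was 0.677, without southern library 1a or 2b it was 0.114 or 0.134 in edgeR, and with all 12 population sums in the fit it was 0.0750. It did not pass in 6 of 32 alternatives (adjusted p 1.02e-29 to 0.677). At the swapped temperatures it was at 26.5 and 0.453, 11.5 and 9.99, and 0.0654 and 0 CPM in southern populations 1, 2 and 3 at 20 °C, and at 0 to 1.48 CPM in northern larvae at 24 °C. The other contig of its Trinity gene differed by 1.46 (edgeR adjusted p = 0.127).

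TRINITY_DN122976_c1_g3_i1 was also higher in southern larvae. Pools a and b were at 14.4 and 26.4 CPM in southern population 1 at 24 °C, 11.4 and 42.2 CPM in population 2 and 38.1 and 9.98 CPM in population 3. In northern larvae at 20 °C they were at 7.85 and 5.94, 8.53 and 2.53, and 6.87 and 3.22 CPM in populations 1, 2 and 3. Every southern library lay above every northern one, and the pools of each southern population differed widely. The log2 difference was 1.98 ± 0.15 (SE, edgeR adjusted p = 0.0142). The SE holds for population sums, in which these unlike pools were added. With the 12 libraries tested singly and population as a random block in limma, the adjusted p was 0.0545. At the swapped temperatures the difference had the same sign and a similar size, 2.22 ± 0.44, without passing the threshold (edgeR adjusted p = 0.0857), at 13.7 ± 7.34 CPM in southern larvae at 20 °C, against 2.88 ± 1.29 CPM in northern larvae at 24 °C (SD, n = 6). There the libraries overlapped: southern library 2b was at 2.15 CPM, within the northern range of 1.34 to 5.22 CPM. The call of the home difference ended without southern population 2 (edgeR adjusted p = 0.0777), southern libraries 1b, 2a, 2b or 3a (0.0747, 0.0679, 0.0819 and 0.0864) or northern libraries 2a or 3a (0.0639 and 0.0539). It did not pass in 10 of 32 alternatives (adjusted p 2.35e-22 to 0.34).

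TRINITY_DN222727_c0_g6_i6 was lower in southern larvae. Pools a and b were at 3.40 and 2.00 CPM in southern population 1 at 24 °C, 2.37 and 3.11 CPM in population 2 and 2.52 and 1.57 CPM in population 3. In northern larvae at 20 °C they were at 7.04 and 14.4, 8.65 and 11.0, and 10.9 and 7.75 CPM in populations 1, 2 and 3. The highest southern library was less than the lowest northern library by more than the range of the southern group. The log2 difference was -1.99 ± 0.16 (SE, edgeR adjusted p = 0.0142). At the swapped temperatures the groups were at 4.95 ± 1.93 CPM in southern larvae at 20 °C, against 5.17 ± 1.74 CPM in northern larvae at 24 °C (SD, n = 6), a log2 difference of -0.08 ± 0.25. The southern-minus-northern difference was -0.99 ± 0.21 at 20 °C and -1.07 ± 0.21 at 24 °C, and the 24-minus-20 °C difference was -0.97 ± 0.20 in southern and -0.92 ± 0.18 in northern larvae. These 4 differences share libraries with the home difference and with each other, and none of them passed adjustment (edgeR adjusted p = 0.192, 0.0759, 0.789 and 0.374). The home difference lost its call without southern population 2 (edgeR adjusted p = 0.0882) or southern library 1b (0.0514), and did not pass in 4 of 32 alternatives (adjusted p 2.81e-18 to 0.17). The other contig of its Trinity gene was also called, with a log2 difference of -1.08 (edgeR adjusted p = 0.0342).

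TRINITY_DN8935_c9_g4_i1 was lower in southern larvae with little spread among them. Pools a and b were at 26.0 and 19.6 CPM in southern population 1 at 24 °C, 22.3 and 26.9 CPM in population 2 and 27.2 and 23.5 CPM in population 3. In northern larvae at 20 °C they were at 31.9 and 65.0, 38.0 and 65.9, and 63.4 and 27.6 CPM in populations 1, 2 and 3. The groups met at 27.2 and 27.6 CPM without overlap, and each northern population held 1 high and 1 low pool. The log2 difference was -1.0 ± 0.08 (SE, edgeR adjusted p = 0.0142). The small SE holds for population sums, in which a high and a low pool were added in each northern population. With the 12 libraries tested singly and population as a random block in limma, the adjusted p was 0.0531. At the swapped temperatures the log2 difference was -0.93 ± 0.18 (edgeR adjusted p = 0.0771), at 22.4 ± 4.89 CPM in southern larvae at 20 °C, against 43.2 ± 6.06 CPM in northern larvae at 24 °C (SD, n = 6), again without overlap. The home call ended without southern populations 1 or 2 (edgeR adjusted p = 0.0575 and 0.103), southern library 1b (0.0514) or northern libraries 1a, 1b or 3a (0.0700, 0.129 and 0.168). It did not pass in 9 of 32 alternatives (adjusted p 2.59e-14 to 0.323). Of the southern-minus-northern and 24-minus-20 °C differences, only the southern-minus-northern one at 24 °C passed in this contig (-0.82 ± 0.10, edgeR adjusted p = 0.0371). The same held for TRINITY_DN280007_c0_g3_i1 (4.44 ± 0.35, edgeR adjusted p = 0.00687) and TRINITY_DN122976_c1_g3_i1 (3.0 ± 0.25, edgeR adjusted p = 0.00905). These differences share the southern libraries at 24 °C with the home difference.

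**Figure D2:**
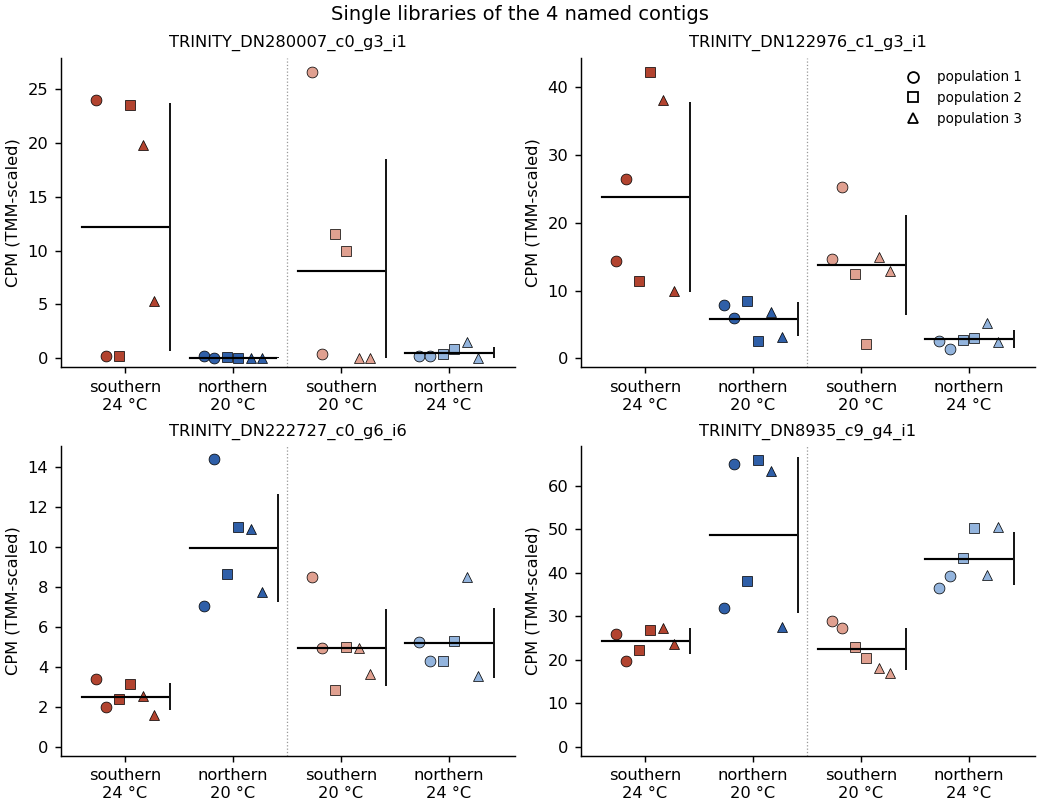
CPM on TMM-scaled library sizes of the 4 named contigs, with 1 point for each library, populations 1 to 3 as circles, squares and triangles, a horizontal line at the mean of 6 libraries and a vertical bar of 1 SD on each side of it (cut at 0). In each panel southern 24 °C and northern 20 °C stand left of the dotted line and the swapped temperatures right of it; TRINITY_DN222727_c0_g6_i6 has means of 4.95 and 5.17 CPM at the swapped temperatures, against 2.50 and 9.96 CPM at the home temperatures.

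The swapped temperatures gave the same latitudes in libraries that the home comparison did not use. By arithmetic, the home difference is the latitude difference averaged over temperatures plus the warming response averaged over latitudes, and the swapped difference is the first minus the second. A contig has the same sign in both when the latitude part is the larger. Of the 139 called contigs, 110 (79.1%, exact binomial 95% interval 71.4 to 85.6%) had the same sign at the swapped temperatures, 50 of the 63 that were higher and 60 of the 76 that were lower. The background was 59.5% of all contigs tested, many of them with differences near 0, and 73% of the 5701 contigs with an unadjusted p under 0.05 at home. The interval for the called contigs includes 73%. The interval covers counting only, and contigs are not independent of each other. At an unadjusted p under 0.05 in the swapped test, which 17.8% of tested contigs reached, there were 57 of the 139 with the same sign and 6 with the opposite sign.

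The called contigs had smaller differences at the swapped temperatures. The 63 contigs had a median log2 difference of 1.16 at home and 0.46 swapped (quartiles 0.11 and 0.99), and the 76 had -1.45 and -0.56 (quartiles -0.95 and -0.10). The contigs were chosen for their home differences, which alone makes those the larger. Over all tested contigs the median size of a difference was 0.24 at home and 0.27 swapped on the log2 scale, and 2354 (7.57%) differed by at least 2-fold at home and 2637 (8.48%) swapped. Across all tested contigs, Pearson's r between home and swapped differences was 0.365 and Spearman's rho 0.290. The 2 sets of libraries are separate but come from the same 6 populations. This is a description across contigs, which are not replicates.

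**Figure D3:**
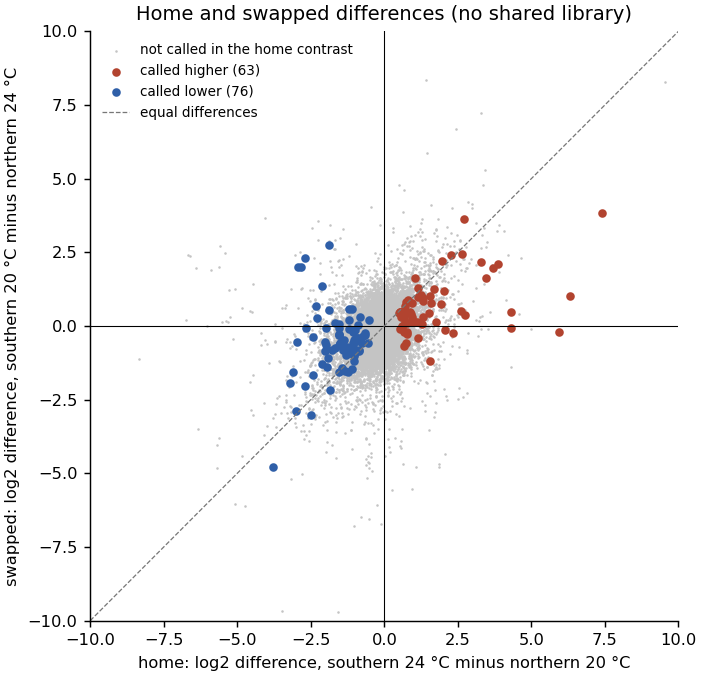
Each point is a contig, with its log2 difference at the home temperatures on the horizontal axis and at the swapped temperatures on the vertical axis. Of the 63 contigs called higher at home 50 lie above 0 on the vertical axis, and of the 76 called lower 60 lie below 0, most of them nearer to 0 than the dashed line of equal differences.

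The swapped test itself called 44 contigs (0.141%), 13 higher and 31 lower in southern larvae. None of the home calls was among them: 0 of 139 and 0 of 44 were shared by edgeR at an adjusted p under 0.05. The nearest home call had an adjusted p of 0.0586 in the swapped test, and the nearest swapped call one of 0.0678 in the home test. The absence of shared calls does not mean that the differences were opposed. Of the 44 swapped calls 39 (88.6%, exact binomial 95% interval 75.4 to 96.2%) had the same sign at the home temperatures, 25 of them at an unadjusted p under 0.05. The median log2 difference of the swapped calls was 2.33 swapped and 0.91 at home for the 13, and -1.45 and -0.41 for the 31. DESeq2 on the same sums called 1710 contigs at home (5.5%) and 1761 swapped (5.66%), of which 451 were shared, 26.4% of the home list and 25.6% of the swapped list. At an unadjusted p under 0.05 in both edgeR tests, 1476 of the 31096 tested contigs had the same sign and 228 the opposite sign. The swapped count was 157, 2 and 9 without southern populations 1, 2 and 3, and 1, 1 and 2 without northern populations 1, 2 and 3.

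The called lists were followed through the 4 groups, with the median log2 CPM of each population given relative to the mean of northern larvae at 20 °C. The 63 contigs stood at 1.18, 1.25 and 1.19 in southern populations 1, 2 and 3 at 24 °C and at -0.04, 0.00 and 0.07 in northern populations at 20 °C, by their choice. They stood at 0.47, 0.89 and 0.86 in southern populations at 20 °C and at 0.21, 0.44 and 0.30 in northern populations at 24 °C, so the swapped groups lay between the home groups and did not overlap. In either list, choosing contigs by their home differences favours such a place between the home groups. The 76 contigs stood at -1.26, -1.38 and -1.31 in southern populations at 24 °C and at 0.00, 0.04 and -0.06 in northern populations at 20 °C. They stood at -0.62, -0.89 and -1.25 in southern populations at 20 °C and at -0.30, -0.41 and -0.15 in northern populations at 24 °C, again without overlap. The medians of all tested contigs stayed between 0.00 and 0.02.

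**Figure D4:**
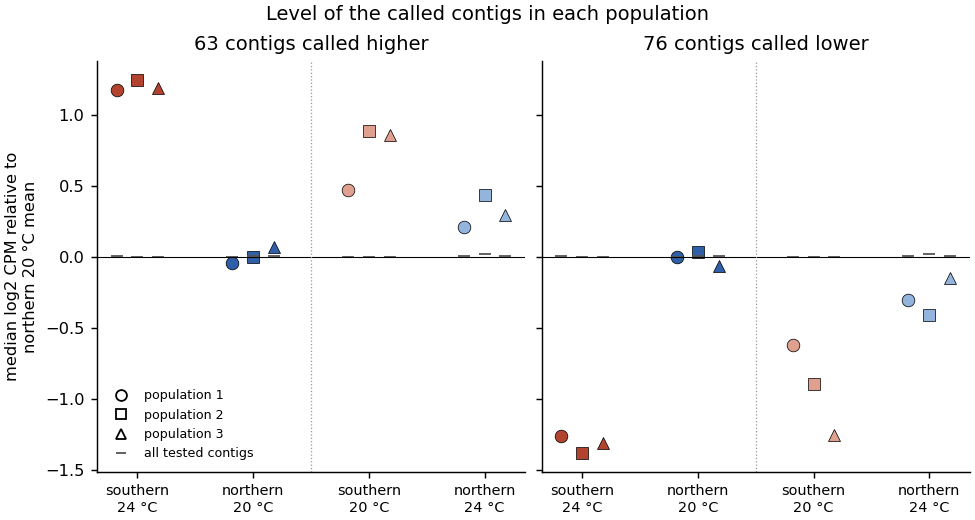
Median log2 CPM of the 63 contigs called higher (left) and the 76 called lower (right) in each population, relative to the mean of northern larvae at 20 °C, with short grey lines for all tested contigs. In both panels the swapped groups, right of the dotted line, lie between the home groups, with southern populations at 20 °C farther from 0 than northern populations at 24 °C. The choice of contigs by their home differences favours the place between the home groups.

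The home difference can be split along 2 paths, and each part shares libraries with it. By the first, it is the southern-minus-northern difference at 24 °C plus the northern 24-minus-20 °C response. For the 63 contigs these had medians of 0.75 and 0.41, and for the 76 of -0.90 and -0.37. By the second, it is the southern 24-minus-20 °C response plus the southern-minus-northern difference at 20 °C, with medians of 0.31 and 0.97 for the 63 and -0.39 and -0.93 for the 76. Over tested contigs each of the 4 medians was between -0.02 and 0. The latitude part had the larger median of the 2 on both paths and in both lists. The contigs were chosen on their sum, so the sizes are a description.

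Whether the home and swapped differences of a contig differ was tested directly, over all 24 libraries with population as a block. The difference of differences equals the sum of the southern and northern warming responses. It passed for 4 contigs (0.0129%), all with the home difference the more positive in this fit, and at an unadjusted p under 0.05 it reached 3590 contigs (11.5%). The home libraries enter this test as well as the home test. The 2 with the smallest p, chosen by p after the values were seen, are TRINITY_DN69847_c1_g2_i1 and TRINITY_DN76281_c0_g1_i1.

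TRINITY_DN69847_c1_g2_i1 averaged 52.1 ± 13.0 CPM in southern larvae at 24 °C, against 23.6 ± 5.01 CPM in northern larvae at 20 °C (SD, n = 6), a log2 difference of 1.14 ± 0.19 that did not pass (edgeR adjusted p = 0.0576). At the swapped temperatures it averaged 33.0 ± 10.9 CPM in southern larvae at 20 °C, against 66.1 ± 15.6 CPM in northern larvae at 24 °C. This difference of -1.01 ± 0.21 did not pass either (edgeR adjusted p = 0.0907). The home and swapped differences differed by 2.15 ± 0.16 (SE, edgeR adjusted p = 0.0182). TRINITY_DN76281_c0_g1_i1 was at 26.8 ± 7.60 and 11.2 ± 2.08 CPM in southern 24 °C and northern 20 °C larvae, and at 15.3 ± 7.08 and 35.3 ± 5.47 CPM in southern 20 °C and northern 24 °C larvae. Its differences were 1.26 ± 0.23 and -1.21 ± 0.24, and neither passed (edgeR adjusted p = 0.0721 and 0.0825). They differed by 2.49 ± 0.18 (SE, edgeR adjusted p = 0.0182). In both contigs the 24 °C group of each pair was the higher one, whichever latitude it was. The count of 4 was 0, 2 and 16 without southern populations 1, 2 and 3 and 0 without northern population 1, 2 or 3. The direction of the calls was not stable: without southern population 3 the home difference was the more positive in 6 and the less positive in 10, and without the population block the counts were 1 and 2. The 4 fits with 0 edgeR calls had 2800 to 3827 contigs at an unadjusted p under 0.05, and DESeq2 with all populations called 235 (0.756%), 139 of them with the home difference the more positive and 96 with it the less positive.

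A subset of the home calls separated the latitudes at every temperature. In 3 of the 63 contigs all 12 southern libraries lay above all 12 northern ones, and in 8 of the 76 all lay below. Over tested contigs 58 (0.187%) had such a separation, 21 higher and 37 lower in southern larvae. The 12 home libraries in these counts also chose the calls, which favours a separation among called contigs. The 3 contigs had median differences of 1.56 at home and 0.77 swapped, and the 8 had -1.65 and -1.85. The other 12 libraries were not used to choose the home calls, and in them alone 4 of the 63 contigs and 15 of the 76 had southern and northern libraries that did not overlap in the home direction, with 1 of the 139 in the opposite direction. Among all tested contigs 1500 (4.82%) had no overlap in these 12 libraries, counted in either direction, so this share is not split as the counts of called contigs are.

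The count of 139 depended on single populations and libraries. Without southern populations 1, 2 and 3 at 24 °C it was 16, 5 and 48, and without northern populations 1, 2 and 3 at 20 °C it was 18, 23 and 619. Without southern libraries 1a, 1b, 2a, 2b and 3b it was 288, 3, 46, 7 and 64, and without northern libraries 1a, 1b, 2a, 2b, 3a and 3b it was 27, 23, 67, 39, 21 and 431. Without southern library 3a it was 111. Northern library 1b, which stood apart on the first component, is therefore 1 of several whose removal lowers the count. Northern population 3, whose pools stood apart on the second component, is the one whose removal gave 619. Pool a alone gave 0 calls and pool b alone 20, or 0.0643% (3727 and 4005 contigs at an unadjusted p under 0.05), with larvae that were not shared. The 63 contigs had median differences of 0.97 in pool a and 1.22 in pool b, and the 76 had -1.30 and -1.46. The sign was the same in both pools for 138 of the 139 contigs, whose choice used both pools, and for 63.1% of tested contigs.

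**Figure D5:**
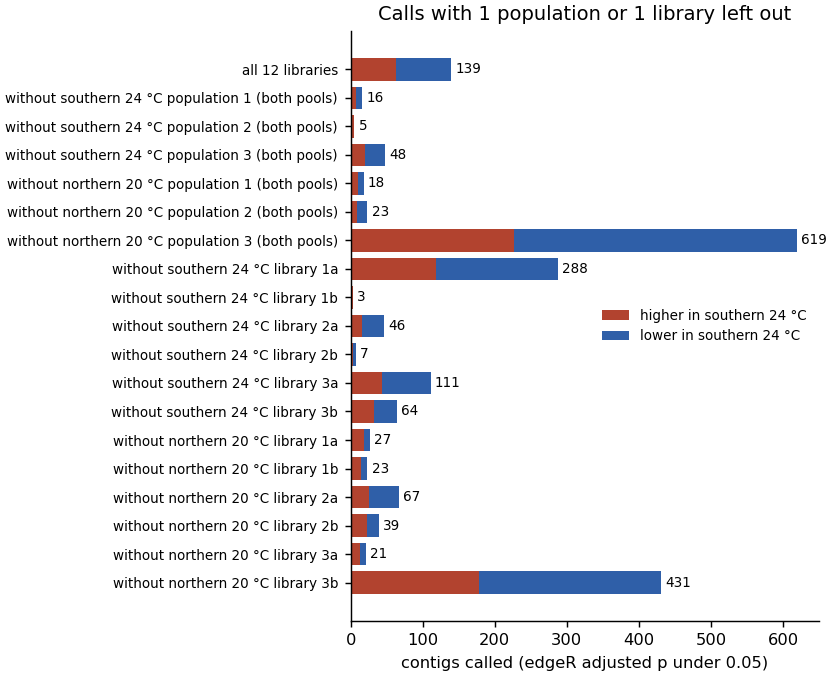
Number of contigs called in the home comparison with all 12 libraries (139) and with 1 population or 1 library left out, split into contigs higher and lower in southern larvae at 24 °C. The count runs from 3 without southern library 1b to 619 without northern population 3.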

How the data were processed

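The authors deposited raw counts, whole numbers of reads for 34095 contigs in 24 libraries. The tools named in the submitters' processing notes are FastQC 0.11.5, featureCounts, Subread 1.5.1 and Trimmomatic 0.36, with no role given to any of them. Not given in the sources used here are the assembly, settings, filters and strand use. Counting may have divided the reads of isoforms and close copies among contigs.

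Both pools of a population were summed and compared with edgeR 4.0.16 in R 4.3.3 (TMM normalisation, robust quasi-likelihood F tests, adjusted p under 0.05 over all contigs tested). Of 31287 contigs that passed filterByExpr (4 groups, minimum count 10, minimum total 15), 191 had 0 counts in at least 10 libraries and were dropped. CPM were computed with TMM factors of 24 libraries, with a prior count of 2 on the log2 scale. SE values are those implied by the F statistics. A count of 3, the floor, was 0.1755 to 0.2519 CPM in the home libraries; intervals cover counting error only. Pools of 1 population and temperature came from different larvae, no pair was identical, and chi-square per degree of freedom was 11.25 to 58.29 between them. The population block of the home-minus-swapped test comes from the labels, and deviations of 1 population at 24 and 20 °C correlated at -0.0448 (northern population 2) to 0.268.

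Contigs were named where single libraries did not overlap, mean log2 CPM was 1 or more and the home test passed, taking the 2 smallest p in each direction. The members, lists and rules were chosen with earlier results of these data known. DESeq2 1.42.0 and limma 3.58.1 served as alternatives, with other scalings and filters and with libraries or populations left out.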

Additional observations from a re-analysis of the deposited data

Results flagged for a closer look

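Of 48 sets of 6 values, each a group of libraries, 4 held a library far from the other 5, and chance alone gives about 1 in 20. In northern larvae at 24 °C, TRINITY_DN222727_c0_g6_i6 was at 8.47 CPM in library 3a. In southern larvae at 20 °C, library 3b held TRINITY_DN69847_c1_g2_i1 at 54.0 CPM and TRINITY_DN76281_c0_g1_i1 at 29.5 CPM, so both came from the same library. TRINITY_DN76281_c0_g1_i1 was also at 15.2 CPM in northern library 3a at 20 °C.

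For 4 of 31096 tested contigs (0.0129%) the home difference differed from the swapped difference, by the test of the difference itself. Latitude and temperature change together in both, and the test is of the sum of the southern and northern warming responses. The count was 0 to 16 with 1 population left out.

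Among the 191 contigs left out for 0 counts in 10 or more libraries, 10 were called in the home comparison when kept, 7 of them higher in southern larvae at 24 °C. These 191 contigs took 0.004848 to 0.07534% of counts in southern larvae at 24 °C and 0.006969 to 0.06266% in northern larvae at 20 °C. With them kept, 150 of 31287 tested contigs were called (0.479%), and 138 of the 139 calls remained. Contigs at 0 in many libraries pass filterByExpr through the libraries where they are present, which can favour a call.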

How the results depend on the processing

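The home count of 139 was 140 to 181 with RLE size factors, upper-quartile factors, no filterByExpr, a mean CPM of at least 1 or contigs at 0 in 10 or more libraries kept, and 131 to 139 of the calls remained. With all 12 population sums in the fit it was 120 (39 higher and 81 lower), and 60 of the 139 remained. It was 1710 with DESeq2, 82 with limma-voom, 88 without the robust fit, 641 with 12 libraries and population as a random block in limma, 815 with 12 libraries taken as independent, 0 with pool a only and 20 with pool b only. Of the 139, 94 remained with the random block, 111 with independent libraries and 2 with pool b only. Leaving out 1 population or library gave 3 to 619. The swapped count of 44 was 43 with RLE size factors or no filterByExpr, 1761 with DESeq2, 27 with contigs at 0 in 10 or more libraries kept, and 1 to 157 with 1 population left out. The count of 4 for the difference of differences was 235 with DESeq2, 0 to 16 with 1 population left out and 3 with no replicate block, 1 of the 4 among them, with the home difference the more positive in 1 and the less positive in 2. With the population number as a replicate block the home count was 29, with 20 of the 139 among them, and the swapped count 1. Southern and northern populations share only a number: deviations of same-numbered populations correlated at -0.082 to 0.111 at the home temperatures, and not every population correlated best with its own number. The share of home calls with the same sign at the swapped temperatures was 78.7 to 80.1%. The 4 named contigs kept their direction in all 32 alternatives. The cause of these changes in counts was not tested. A fit with 1 population left out has 2 populations in 1 group, and contigs of low count could be called only at large differences.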
